A study of Homo sapiens with 3 samples.

Results

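Caveolae are small flask-shaped pits of the plasma membrane, and flotillins mark a separate class of membrane microdomain. The genes described here are CAV1, CAV2, CAVIN1, EHD2, PACSIN2, FLOT1 and FLOT2, that is 7 of the 19775 genes that at least 1 unique probe set measured in this series. They were taken through all 20 probe sets that the platform annotation pairs with exactly 1 of them, with PTRF counted as CAVIN1. They were chosen by function after CAV1 had been seen among the genes with the lowest differences of the miR-146a arrays from the vector. Their differences between the groups are therefore a description, and no test of them supports anything.

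The cells were HT29, an established human colorectal adenocarcinoma line grown in DMEM with serum. The vector group is 1 array of cells transduced with an empty lentiviral vector, and the miR-146a group is 2 arrays of cells transduced in the same way with an expression construct for that microRNA. All 3 arrays thus share the line and the lentiviral transduction, and no promoter or clone is given in the sources used here. Separate cultures are not mentioned for the pair of miR-146a arrays, so any p-value reflects array-to-array variation that could be technical. The vector group is unreplicated. Values are log2 signals made by RMA, a method that corrects background, normalizes between arrays and summarises the probes of each set. In these bulk samples, fewer cells of a type and less RNA per cell cannot be told apart.

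Caveolin-1 and caveolin-2 are hairpin membrane proteins that oligomerise with each other, and CAVIN1 supplies the cytoplasmic coat without which caveolae do not form. EHD2 is an ATPase that sits at the neck of a caveola and holds it at the surface, and PACSIN2 is an F-BAR protein that bends the membrane there. FLOT1 and FLOT2 form hetero-oligomers on the inner face of cholesterol-rich membrane and do not need caveolins to do so. Simple epithelial cells such as those of the colon are known for few caveolae compared with fat, endothelium and muscle.

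The microRNA that was introduced acts through its seed, bases 2 to 8, which are in capitals in its mature sequence from RefSeq (GRCh38.p14, chr5:160485372-160485393, plus strand). It is shown because it is what the miR-146a cells received and the vector cells did not.
hsa-miR-146a-5p: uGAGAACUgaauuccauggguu
Whether the transcripts of the 7 genes carry matches to this seed was not analysed here.

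The caveolins had the lowest values relative to the vector. CAV1 was read by 2 probe sets and CAV2 by 3, and the 4 of these above the filter on low signal (5.13, the median of all probe sets besides controls) were all lower in both miR-146a arrays. The fold difference of their means ran from 1.43 to 1.84. In all 4, the vector array lay above both miR-146a arrays by more than the gap between those 2 arrays. Being lower in both arrays was common, at 28.9% of all probe sets besides controls. The share of these that also exceeded the gap was not counted, so the separation is a description only.

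For CAV1, probe set 212097_at read 8.71 in the vector and 7.86 and 7.83 in the miR-146a pair. The vector array was the highest and the 2 miR-146a arrays lay 0.03 apart, which is 7.85 ± 0.02 (SD, n = 2) and a 1.81-fold difference. Its other probe set, 203065_s_at, read 7.39 in the vector and 6.87 and 6.88 in the miR-146a pair. The groups did not overlap here either, but the difference was smaller, at -0.52 against -0.86 on the log2 scale. The size of the CAV1 difference therefore depends on the probe set, and it was -0.69 with both averaged.

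For CAV2, the partner that CAV1 carries to the plasma membrane, probe set 203323_at read 8.48 in the vector and 7.61 and 7.59 in the miR-146a pair. This is a 1.84-fold difference, with the 2 miR-146a arrays 0.02 apart. Probe set 203324_s_at read 9.49 in the vector and 8.66 and 8.91 in the miR-146a pair. Here the 2 miR-146a arrays stood 0.25 apart, the widest gap of the 4 caveolin probe sets, and the vector lay 0.58 above the nearer of them. The remaining CAV2 probe set, 213426_s_at, read 4.79 in all 3 arrays and lies below the filter. Exactly equal values in all 3 arrays (tolerance 0) were found in 8.29% of all probe sets besides controls, so this reading gives no information on the groups.

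**Figure D1:**
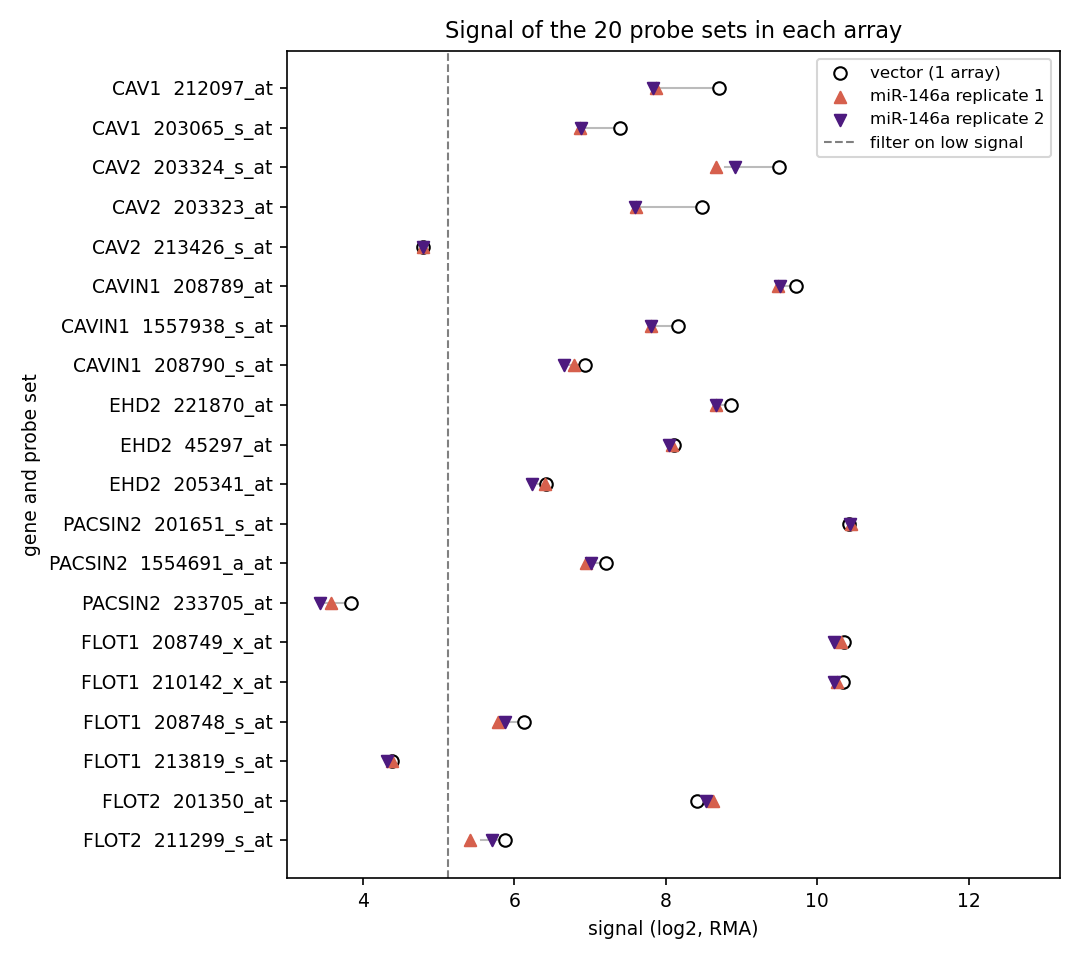
Each row is 1 of the 20 probe sets, the horizontal axis is the log2 RMA signal, the open circle is the vector array, the triangles are the 2 miR-146a arrays, and the grey line joins the vector to their mean. For CAV1 and CAV2 above the filter (dashed line, 5.13) both triangles sit between -0.89 and -0.51 from the circle, and for the other genes between -0.45 and 0.21. Signals of different probe sets are not comparable with each other.

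The coat gene CAVIN1 was lower by less. Probe set 208789_at read 9.72 in the vector and 9.49 and 9.51 in the miR-146a pair, a 1.16-fold difference. Probe set 1557938_s_at read 8.16 in the vector array and 7.80 in both miR-146a arrays, and 208790_s_at read 6.93 against 6.78 and 6.65. All 3 probe sets were thus lower in both miR-146a arrays, with mean differences of -0.22, -0.36 and -0.21 on the log2 scale. The exactly equal miR-146a values of 1557938_s_at say nothing about its error, since 19.3% of all probe sets were equal (tolerance 0) in those 2 arrays.

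EHD2 at the caveola neck was lower in both arrays by all 3 of its probe sets, though barely so by 2 of them. Probe set 221870_at read 8.86 in the vector and 8.67 and 8.66 in the miR-146a pair, a 1.15-fold difference. The other probe sets, 45297_at and 205341_at, had mean differences of -0.04 and -0.11. For both of these, the vector stood only 0.02 above the nearer miR-146a array, while the miR-146a arrays stood 0.04 and 0.17 apart.

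The probe sets of PACSIN2 disagreed. The brightest, 201651_s_at, read 10.41 in the vector and 10.45 and 10.43 in the miR-146a pair, a difference of 0.03 at most. Probe set 1554691_a_at read 7.21 in the vector and 6.95 and 7.02 in the miR-146a pair, so it was lower in both. Probe set 233705_at, below the filter, read 3.84 against 3.57 and 3.43. Averaged over the 3 probe sets PACSIN2 differed by -0.18, against 0.03 for the brightest alone, so its direction rests on the probe set chosen.

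FLOT1 lay close to the vector in its bright probe sets. Probe set 208749_x_at read 10.35 in the vector and 10.32 and 10.22 in the miR-146a pair, and 210142_x_at read 10.34 against 10.26 and 10.22. In the former the gap between the miR-146a arrays, 0.09, exceeded the distance of the vector from the nearer of them, 0.04. Probe set 208748_s_at differed more, with 6.13 in the vector and 5.78 and 5.88 in the miR-146a pair. Probe set 213819_s_at, below the filter, read 4.38 in the vector and replicate 1 and 4.32 in replicate 2. The suffix x marks probe sets whose probes can bind transcripts of other genes, so the 2 bright readings are the less specific ones.

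FLOT2, the partner of FLOT1, had the largest positive difference of the 7 genes through its brightest probe set. Probe set 201350_at read 8.41 in the vector and 8.63 and 8.53 in the miR-146a pair, a 1.12-fold difference. Its other probe set, 211299_s_at, went the opposite way, with 5.87 in the vector and 5.42 and 5.71 in the miR-146a pair. The miR-146a arrays differed there by 0.29, more than the vector differed from the nearer of them (0.16). The average of both probe sets was -0.07.

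Over the 20 probe sets, 16 were lower in both miR-146a arrays, 2 were higher in both and 2 went neither way. Among all probe sets besides controls 28.9% were lower in both. The median difference was -0.21, against 0.00 over all probe sets besides controls. A difference of at least 1.5-fold below the vector in both arrays was found for 2 of the 20, 212097_at of CAV1 and 203323_at of CAV2, where the share over all was 0.485%. The other CAV2 probe set, 203324_s_at, lay just outside, since the vector stood 0.584 above replicate 2 and the bound is 0.585. These counts describe genes chosen with this contrast in view, and several probe sets read the same transcript.

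By gene, each taken through its probe set of highest average signal, the order of the differences from the lowest was CAV1 (-0.86), CAV2 (-0.71), CAVIN1 (-0.22), EHD2 (-0.20), FLOT1 (-0.08), PACSIN2 (0.03) and FLOT2 (0.17). CAV1 was number 10 and CAV2 number 28 from the lowest among 12444 genes above the filter. CAVIN1 had 6.41% of genes below it and EHD2 7.80%. CAV1 and CAV2 do not differ beyond their spread, since CAV2 lay at -0.83 in replicate 1 and -0.58 in replicate 2, and its other probe set above the filter was at -0.88. CAVIN1 and EHD2 lay close together through their brightest probe sets, at -0.23 and -0.21 against -0.20 and -0.20 in the 2 arrays. With all probe sets averaged they were at -0.26 and -0.11, so their closeness depends on the probe set. The step between CAV2 and CAVIN1 is wider than the gap between the 2 miR-146a arrays for either gene. That gap does not measure the error of the single vector array, which enters every difference. Over the probe sets above the filter, the smallest caveolin difference was -0.52 and the lowest of CAVIN1 was -0.36. Several of these probe sets read the same transcript, so they are not independent readings of the step.

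**Figure D2:**
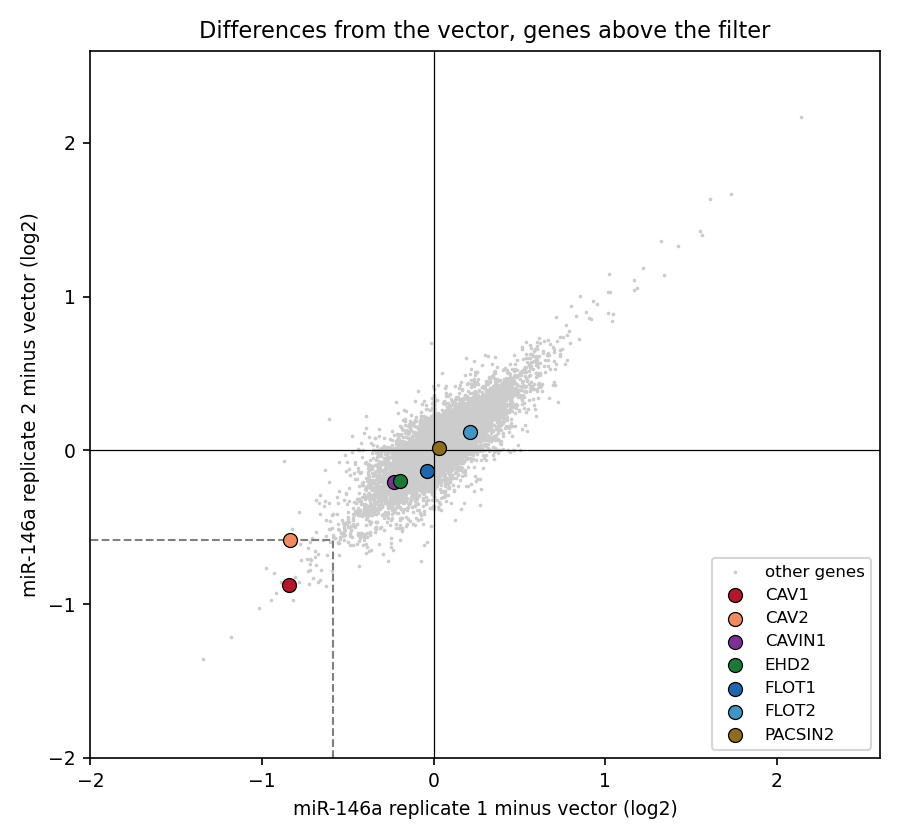
Each grey point is a gene above the filter, placed by its log2 difference from the vector in miR-146a replicate 1 (horizontal) and replicate 2 (vertical), and the 7 coloured points are the caveola and flotillin genes through their brightest probe sets. CAV1 lies inside the dashed corner that marks at least 1.5-fold lower in both arrays, CAV2 on its edge, and the other 5 between -0.23 and 0.21. Both axes subtract the same vector array, so the diagonal shape of the cloud is no evidence of reproducibility.

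In both arrays, 37 of the 12444 genes (0.297%) lay at least 1.5-fold below the vector, CAV1 among them, and 68 (0.546%) at least 1.5-fold above it. Limma's moderated test with Benjamini-Hochberg adjustment called 0 of the genes (0.0%) and 0 of the 27306 probe sets above the filter (0.0%) at an adjusted p under 0.05, with lowest adjusted p-values of 0.118 and 0.131. At an unadjusted p under 0.05 it gave 2933 genes and 6379 probe sets. With the variance prior taken from features whose 2 miR-146a values differ, 294 genes (2.36%) were called lower and 592 (4.76%) higher. In that setting the probe set fit called 4.78% of probe sets lower, and 5 of the 17 caveola and flotillin probe sets above the filter were among them. They were both of CAV1, both of CAV2 above the filter and 1557938_s_at of CAVIN1. Nothing is read from these calls, which use the contrast by which the genes were chosen and take the single vector array to vary like the miR-146a pair.

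The 5 genes whose pair of differences lay nearest to that of CAV1, by Euclidean distance over the 2 differences from the same vector array, were AHNAK2, DDIT4, CLU, TM4SF4 and MICOS10P1, a pseudogene. Their distances ran from 0.05 to 0.10 on the log2 scale. AHNAK2, a giant scaffold protein, was at -0.89 and -0.86 in the 2 arrays, while its other probe set had a mean difference of -0.46. DDIT4, an inhibitor of mTORC1, was at -0.81 and -0.82. CLU, the chaperone clusterin, was at -0.78 and -0.85, but its other probe sets ran from -0.87 to 0.06. TM4SF4, a membrane protein of the tetraspanin-like L6 family, was at -0.92 and -0.93. CAV2 was number 31 in this order, at a distance of 0.29. With 3 arrays the measure says only that these genes had a difference of like size.

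CAV2 and CAV1 lie next to each other on chromosome 7, so their protein-coding neighbours in the RefSeq gene table were read as well. TES, the focal adhesion gene beside CAV2, had 2 probe sets above the filter, at 0.07 and -0.14. MET, the receptor for hepatocyte growth factor beside CAV1, had 4 above the filter that did not agree. The brightest, 203510_at, read 12.24 in the vector and 12.17 and 12.23 in the miR-146a pair. In contrast, 211599_x_at read 8.11 in the vector and 7.44 and 7.18 in the miR-146a pair, and 213807_x_at read 7.15 against 6.20 and 6.56. The fourth, 213816_s_at, was higher, at 0.11. The direction for MET thus changes with the probe set, and its brightest probe set lay -0.04 from the vector. Both 211599_x_at and 213807_x_at carry the suffix x, so they are less specific readings of MET.

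CAPZA2, an actin-capping subunit beyond MET, was lower by -0.22 and -0.13 in its 2 probe sets above the filter. On the far side of TES, the probe sets of TFEC and MDFIC were all below the filter. ST7 had no probe set of its own. Among all 36 protein-coding neighbours (3 on each side of each locus), 27 were above the filter through their brightest probe set. Through these probe sets, 0 lay 1.5-fold or more below the vector in both arrays and 0 lay that far above. Over all genes the shares were 0.297% and 0.546%, so a count of 0 does not set the neighbours apart. Their mean differences ran from -0.31 to 0.44. Outside this count, 211599_x_at of MET lay at -0.68 and -0.93, more than 1.5-fold lower in both arrays. The neighbours of CAVIN1, which include STAT3, STAT5A and STAT5B, ran from -0.04 to 0.44 through their brightest probe sets.

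**Figure D3:**
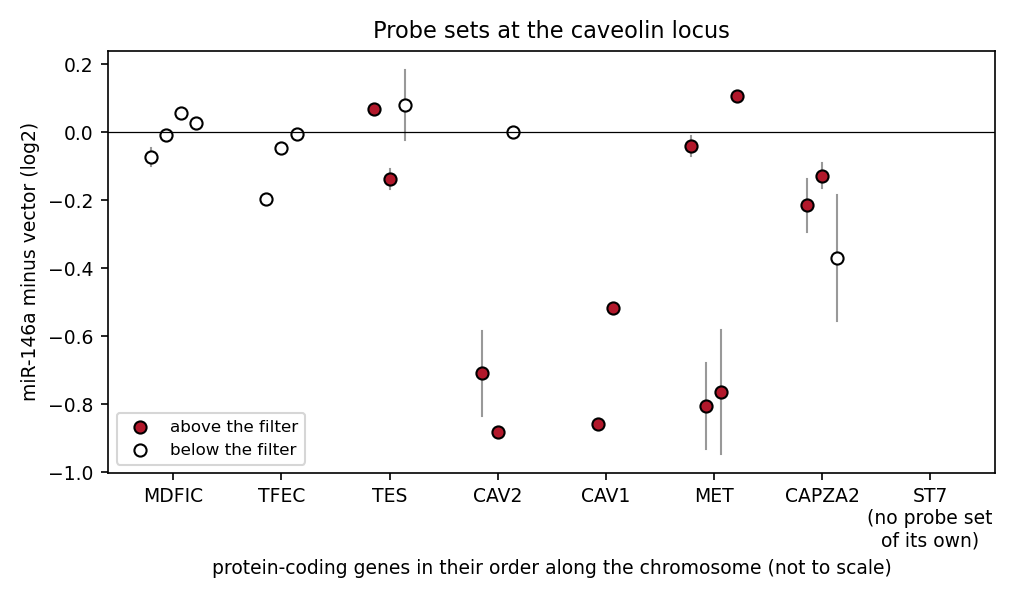
Each point is a probe set, the vertical axis is its mean log2 difference from the vector, the line spans the 2 miR-146a arrays, and genes stand in their order along the chromosome, not to scale. The 4 filled caveolin points lie between -0.88 and -0.52, the filled points of TES at -0.14 and 0.07, and those of MET split between -0.80 and 0.11.

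Both caveolin promoters are shown because the 2 genes had differences of like size. RefSeq promoter windows (GRCh38.p14) matched 6 of the 7 genes in 14 entries, and the 250 bases before each start were searched on both strands for promoter motifs. The GC box, spelled GGGCGG, was found 3 times in the first entry of CAV1 and 6 times in the first entry of CAV2. At least 1 was held by 42.6% of all 35116 entries, and counts per entry were not compared with all entries. The 2 caveolin entries were 63.6% and 83.2% G or C, against a median of 58.0% over all entries. This was not particular to the caveolins, as FLOT1 (76.8%), EHD2 (69.6%) and FLOT2 (66.0%) also lay above that median. PACSIN2 had 1 entry above it, at 68.0%, and the rest at 46.4% to 50.0%. The core of the hypoxia response element, spelled ACGTG, was found in CAV1, in the 2 of its 3 entries that overlap each other, and in neither entry of CAV2, against 18.5% of all entries. The TATA box, spelled TATAAA, was found in no caveolin entry, against 10.7% of all. The CCAAT box, spelled as it is named, was likewise found in no caveolin entry, against 32.0% of all.

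The following 30-base windows are on the plus strand of chromosome 7, with the motif in capitals. The first and second are of CAV1 (chr7:116524866-116524895, hypoxia core on the opposite strand, and chr7:116524905-116524934, GC box) and the last is of CAV2 (chr7:116499677-116499706, GC box).
CAV1, hypoxia core: acccggcgcagcaCACGTccgggccaaccg
CAV1, GC box: caaacctttggcGGGCGGccaggaggctcc
CAV2, GC box: cgaggcgaggggGGGCGGggccgggcgcta
The CAV1 motifs begin 130 and 92 bases before its start and the CAV2 motif 49 bases before. The AP-1 site, spelled TGANTCA, was found once among the 14 entries, in FLOT2, against 6.57% of all. FLOT1 held 8 GC boxes, FLOT2 and 1 entry of PACSIN2 held 2 each, and EHD2 held 1, so the box was not particular to the caveolins. Motifs were counted separately where they overlap, as 2 of the 3 GC boxes in the second CAV2 entry do. A match of letters is a description and shows neither binding nor use in these cells.

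The other genes of caveolae, rafts and endocytosis were read from 7 lists of 73 genes, of which 57 lay above the filter. Of these, 22 were higher and 21 lower in both arrays, where 40.2% and 28.8% of all genes were. The median difference was 0.00, against 0.015 over all genes. Limma called 0 of them in either direction. Calls came only with the prior from unequal replicates, ROR1 higher and CD55 and PAG1 lower. In that setting 4.76% of all genes were called higher and 2.36% lower. As the vector is 1 array, nothing is read from these calls.

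Among other caveola proteins, 6 of 11 were above the filter, 5 of them higher and 1 lower in both arrays, with a median of 0.09. ROR1, a receptor-like kinase known as a scaffold for CAVIN1 and CAV1, read 7.33 in the vector and 8.04 and 8.19 in the miR-146a pair. It was thus 1.73-fold higher (miR-146a mean 8.12 ± 0.11, SD, n = 2). Its other probe sets above the filter were at 0.13 and 0.86. NOSTRIN, an F-BAR protein that binds endothelial nitric oxide synthase, was at -0.30 and PACSIN3, a relative of PACSIN2, at 0.20. The coat relatives CAVIN2, CAVIN3 and CAVIN4 all lay below the filter by the average of the group means, on which it acts, at 2.87 to 5.15 in single arrays. CAVIN3 was just above 5.13 in replicate 1 alone.

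Genes for caveola scission, phosphorylation and actin anchoring had 8 of 10 members above the filter, 3 higher and 3 lower in both arrays, with a median of 0.00. DNM2, the dynamin that pinches vesicles off, was at -0.31, although another of its probe sets was at 0.42. RHOA, a switch of actin stress fibres, was at -0.24 and -0.59 in its 2 probe sets above the filter, and the kinase ABL1 was at 0.16.

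The stomatin, prohibitin and erlin relatives, which share the fold of the flotillins, spanned -0.19 to 0.07, with 2 of 6 higher and 2 lower in both arrays. ERLIN2 was at -0.19, ERLIN1 at 0.07 and STOML2 at 0.06. Averaged with its other probe set, which lies below the filter, ERLIN1 was at -0.33. Of the flotillin partners and raft adaptors 4 of 6 were above the filter. PAG1, a raft adaptor that recruits the kinase CSK, read 6.23 in the vector and 5.85 and 5.57 in the miR-146a pair, and its other probe sets were below the filter. ZDHHC5, which palmitoylates FLOT2, was at 0.19 and SORBS3 at 0.06.

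Proteins held in rafts by a GPI anchor had 12 of 14 genes above the filter, 3 higher and 6 lower in both arrays, with a median of -0.09. CD55, which protects cells from complement, read 9.44 in the vector and 8.72 and 8.70 in the miR-146a pair. This is a 1.66-fold difference (miR-146a mean 8.71 ± 0.01, SD, n = 2), and its other probe sets were at -0.63 and -0.37. CD59, another complement inhibitor, was at -0.21, with 4 other probe sets from -0.45 to -0.25. FOLR1 was at -0.32, but its other probe set was at 0.25.

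The clathrin coat and AP2, the main route of uptake beside caveolae, had 15 of 16 genes above the filter, 4 higher and 6 lower in both arrays, with a median of -0.07 and a range of -0.26 to 0.14. EPS15 (-0.26), DAB2 (-0.24) and PICALM (-0.12) were the 3 with the largest difference shared by both arrays. The other probe sets of PICALM ran from -0.89 to -0.04. In the list of clathrin-independent uptake, 3 of 6 were higher and 2 lower in both arrays, with CDC42 at -0.28, ARHGAP26 at -0.15 and GBF1 at 0.07. Other probe sets above the filter ran from -0.21 to 0.10 for ARHGAP26 and from -0.23 to -0.002 for CDC42.

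**Figure D4:**
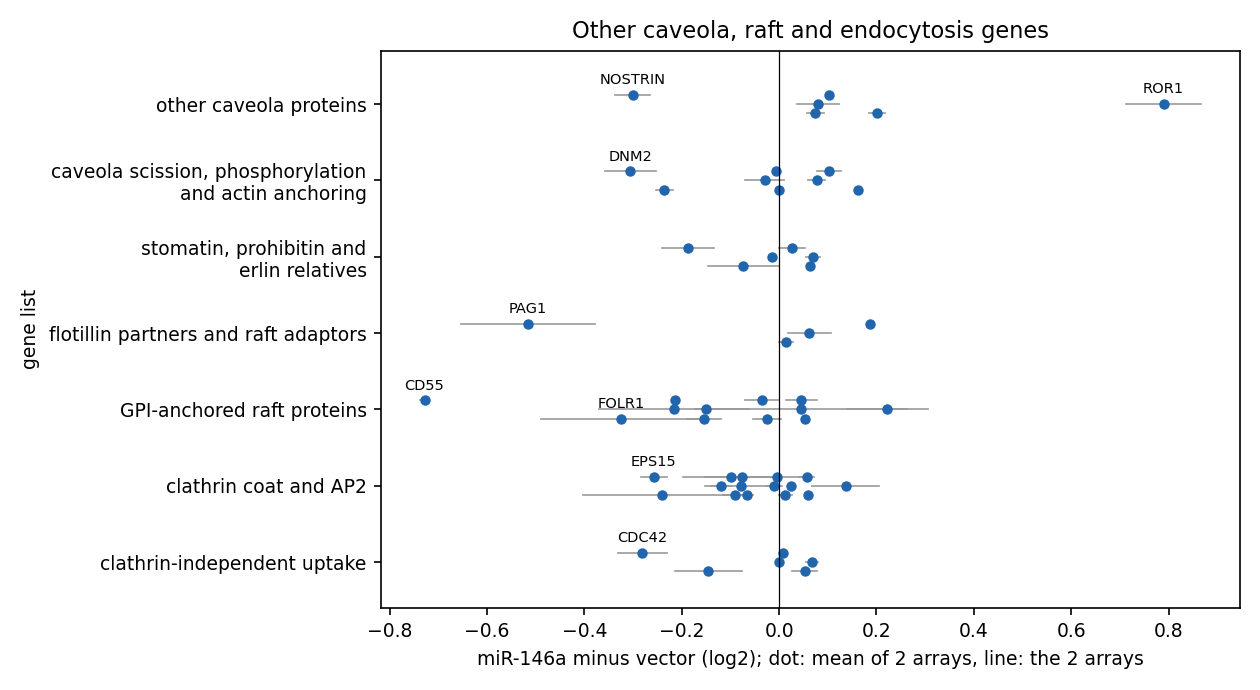
Each dot is a gene above the filter in 1 of the 7 lists, the horizontal axis is the mean log2 difference of the miR-146a arrays from the vector, and the line joins the 2 arrays. ROR1 stands at 0.79, PAG1 at -0.52 and CD55 at -0.73, and the next of the 57 dots in distance from 0 is FOLR1 at -0.32.

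The labelled cell type was checked by its markers. All 10 colon epithelium markers were above the filter, with summed linear signals of 53439 in the vector and 53122 and 52862.5 in the miR-146a pair. In both miR-146a arrays 5 of them were lower and 4 higher, and the sums rest mostly on the brightest, such as KRT18 and KRT8. CDH17, a cadherin of the intestine, read 5.86 in the vector and 5.39 and 5.24 in the miR-146a pair, and KRT20, a keratin of differentiated colon cells, differed by -0.24. CDX2, an intestinal transcription factor, was close to the filter at 5.63 to 5.70, and CDH17 was closer still in both miR-146a arrays. Cells rich in caveolae were represented by fibroblast, endothelium, adipocyte and muscle markers, of which 3 of 8, 2 of 6, 1 of 5 and 2 of 6 were above the filter. Their summed linear signals in the vector, replicate 1 and replicate 2 were 339, 319 and 325 for fibroblast, 174, 178 and 181 for endothelium, 128, 123 and 121 for adipocyte, and 192, 189 and 201 for muscle markers. Those above it were COL1A1, THY1 and DCN for fibroblasts, PECAM1 and CLDN5 for endothelium, CIDEC for adipocytes, and ACTA2 and MYH11 for muscle, at most 7.33 in any array. The part of such cells in the caveolin differences was not tested. The probe sets for the 5′ ends of ACTB and GAPDH, controls of RNA quality, were lower in the miR-146a arrays by -0.18 to -0.32, while their 3′ probe sets lay between -0.03 and 0.05. The mean differences of CAVIN1, EHD2 and FLOT1 were no larger than this, apart from 1557938_s_at of CAVIN1 at -0.36, and the part of the 5′ shift in them was not tested.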

How the data were processed

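Total RNA was reverse transcribed and biotin-labelled for Affymetrix arrays, per the labels' protocols. The deposited log2 values of 54675 probe sets were made by the authors with RMA, per the submitters' processing notes, of a version not given in the sources used here, as is which arrays were processed together. Gene names came from the platform's annotation, updated by Entrez number through RefSeq (GRCh38.p14), and 41091 of the 54613 non-control probe sets had 1 gene, 1801 several and 11721 none here. Differences are miR-146a minus vector, and folds are 2 to that power. Limma 3.58.1 (R 4.3.3, two-sided, Benjamini-Hochberg) was fitted over probe sets, and over genes by their brightest probe set, above the median signal of 5.13, with 1 residual degree of freedom. The number of arrays limits the precision.

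The genes, lists and settings were chosen with earlier results of these data known. Named genes were all 7 genes, the 5 nearest to CAV1, up to 3 per list with the largest smaller-of-2 array difference, and the 3 neighbours on each side of the caveolins. Marker genes, the neighbours of CAVIN1, and motif counts of FLOT1, FLOT2, PACSIN2 and EHD2 were named besides, after their values were seen. Alternatives were other filters and priors, further normalization of the deposited values by cyclic loess or by quantiles, averaged probe sets, and leaving out each miR-146a array. The fit was tested on simulated data. Figures were drawn with matplotlib 3.10.9.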

Additional observations from a re-analysis of the deposited data

How the results depend on the processing

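The differences of CAV1 (-0.87 to -0.69), CAV2 (-0.83 to -0.53), CAVIN1 (-0.26 to -0.21), EHD2 (-0.21 to -0.11) and FLOT1 (-0.13 to -0.04) kept their direction when probe sets were averaged, with cyclic loess, with quantile normalization and without either miR-146a array. With probe sets averaged, PACSIN2 turned to -0.18 and FLOT2 to -0.071, as their probe sets disagree. The count of 16 probe sets lower in both arrays was 16 to 17 under the alternatives run. With the prior from unequal replicates limma called 2436 probe sets and 886 genes, against 0 in every other setting, and in the fit with the usual prior exactly equal replicates enter with no spread. Genes at least 1.5-fold lower numbered 22 with the filter at percentile 70, where fewer genes are tested, and 62 to 64 without replicate 1 or 2, where only 1 array has to pass. Genes at least 1.5-fold higher numbered 39 with probe sets averaged and 88 to 110 when either replicate was left out. The other counts stayed within 1.5 times. Without a replicate no test is possible, since no residual degree of freedom is left. No paired analysis was possible because the vector has 1 array with no number of its own. Low-signal probe sets carry many exactly equal values and limit what can be read below the filter.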
